A study of Mustela putorius furo with 2 samples.

Results

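Kinesins are motor proteins that walk along microtubules or take them apart. A first group is best known from cell division, where its members push spindle poles apart, align chromosomes and build the midzone on which cytokinesis runs. A second group carries vesicles, organelles and RNA, and is used heavily in axons and dendrites, while a smaller group serves the cilium and the Hedgehog pathway that is read there. In the developing cortex both ends of this family meet, since radial glia and intermediate progenitors divide beside the neurons that they produce. The roles named here come from work in human and mouse.

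The kinesin genes were taken as every gene symbol that starts with KIF followed by a number, or with KIFC followed by a number, and that held at least 20 UMIs (unique molecular identifiers, each standing for a captured RNA molecule). Of 45 such names among 29816 gene names, 39 met this rule, and they held 113577 UMIs, or 0.187% of all UMIs. The member with the fewest UMIs was KIF17 with 36, and KIF12 with 5 stood just outside. The other 5 names (KIF4B, KIF2B, KIF1BP and a pair of antisense names) had no UMI and lay in the stretch at the end of the gene list where no name had any, so they were treated as not measured. The members were divided by role into 12 mitotic, 17 transport, 6 cilium and Hedgehog, and 4 other kinesins. All 39 symbols were found in the RefSeq gene table of ferret assembly ASM1176430v1.1.

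The cells came from the dorsal cortex of wild-type ferrets 3 days after birth, dissociated with papain and run on the 10x Genomics Chromium platform, with no treatment. They were deposited as 2 replicates of this single group. The labels do not say how many pups stand behind a replicate. The comparisons are therefore between classes of cells within the 2 libraries, called A and B after the barcode suffix. All p-values rest on how far the differences between classes vary between these libraries, pooled over the 10 neural classes. The spread of each gene was also drawn toward that of all genes tested. That shared part carried more degrees of freedom (41.0) than the gene's own sums (9). The mean difference between libraries is taken out by the fit, and the spread that is left may be technical. Library A held 9782 cells and 41836475 UMIs and library B 5005 cells and 18907140 UMIs, and 21 barcodes occurred in both.

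Cells were gated by the UMIs of marker genes among which there was no kinesin. Dividing progenitors had at least 8 UMIs of a list of 16 G2 and mitosis genes, and were either dividing intermediate progenitors (EOMES present, 238 and 106 cells in libraries A and B) or dividing radial glia (glial markers present and EOMES absent, 202 and 103 cells). S-gated progenitors had at least 8 UMIs of 18 S phase genes and at most 3 of the G2 and mitosis list. The non-dividing classes were intermediate progenitors (494 and 226 cells), inhibitory neurons (798 and 203), excitatory neurons (2578 and 1207), oligodendrocyte precursors (76 and 26), EGFR and OLIG1 progenitors (107 and 37) and glia (577 and 313). "Neurons" below means the average of inhibitory and excitatory neurons.

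Marker genes outside the gates were read as a check. The proliferation list summed to between 3306 and 3887 CPM (a gene's UMIs scaled to the total UMIs of its class and library, the usual depth-scaled count) in the dividing classes and to between 365 and 608 CPM in the 8 other neural classes. The inhibitory list summed to 1449 and 1229 CPM in inhibitory neurons and to at most 203 CPM in the other neural classes. The oligodendrocyte precursor list summed to 600 and 641 CPM in that class, but also to 410 and 378 CPM in EGFR and OLIG1 progenitors. The radial glia list summed to 40154 and 42722 CPM in glia, above dividing radial glia (19528 and 20809 CPM). It was also higher in excitatory neurons (9609 and 10554 CPM) than in dividing intermediate progenitors (7173 and 7837 CPM). The astrocyte list summed to 3032 and 3161 CPM in glia, so that class carries both marker sets. The intermediate progenitor list summed to 1412 and 1398 CPM in dividing intermediate progenitors, against 362 and 429 CPM in dividing radial glia. The excitatory list did not set excitatory neurons (705 and 679 CPM) apart from inhibitory neurons (742 and 619 CPM), so the name of that class rests on its gate genes. Dividing cells were deeper, with a median of 5580.5 to 7451 UMIs per cell, against 2453 to 3228 in neurons and 4154 and 4680 in glia.

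**Figure D1:**
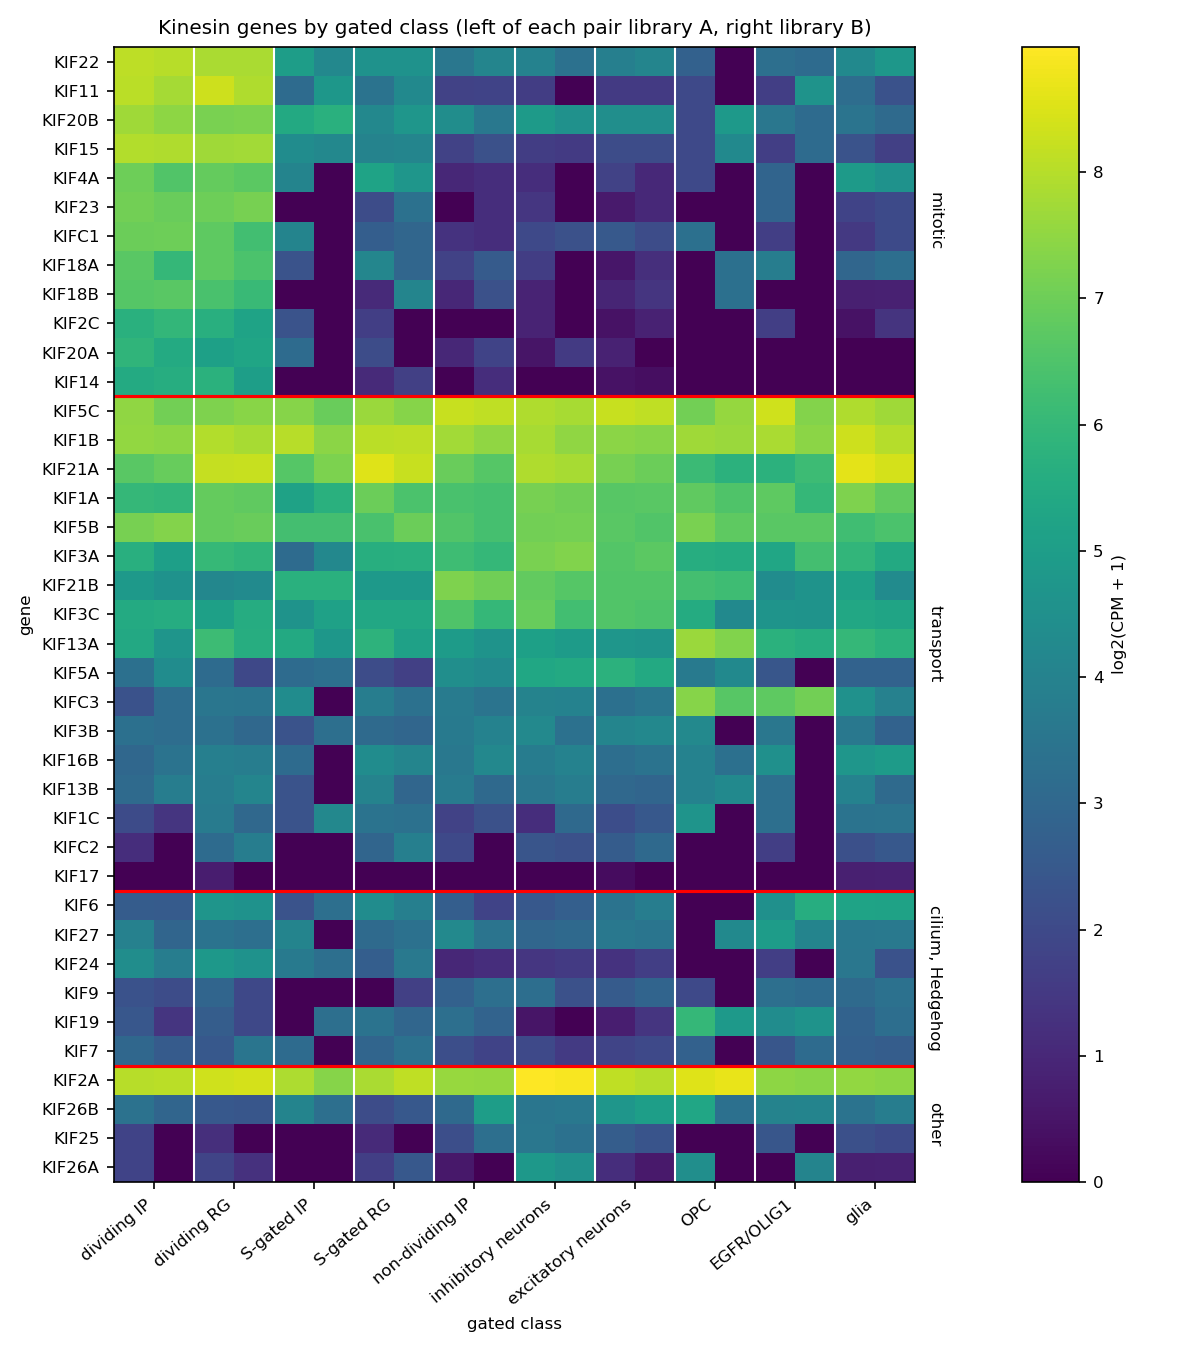
Level of each of the 39 kinesin genes, as log2(CPM + 1) in colour, in 10 gated neural classes; the left column of each class is library A and the right column library B. The 12 mitotic kinesins at the top are bright in the dividing classes and dark elsewhere, while most transport kinesins below them are lit in every class.

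The mitotic kinesins were much higher in dividing cells. Summed over the 12 genes, they came to 1731 and 1558 CPM in dividing intermediate progenitors and 1570 and 1408 CPM in dividing radial glia, against 57.7 and 39.0 CPM in inhibitory neurons, 50.2 and 51.5 CPM in excitatory neurons and 82.0 and 79.4 CPM in glia. The 17 transport kinesins summed to 872 and 832 CPM in dividing intermediate progenitors and 1186 and 1160 CPM in dividing radial glia, against 1491 and 1366 CPM in inhibitory neurons, 1228 and 1171 CPM in excitatory neurons and 1467 and 1240 CPM in glia. The mitotic sum was thus many times higher in each dividing library than in any neuronal or glial one, and the transport sum was lowest in dividing intermediate progenitors among these 5 classes. In S-gated intermediate progenitors the transport sum was lower still, at 807 and 734 CPM.

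In the comparison of dividing progenitors with neurons, 34 of the 39 members had enough counts to be tested, and 15 rose and 11 fell at an adjusted p under 0.05 (edgeR's quasi-likelihood test, Benjamini-Hochberg adjustment over all 11157 genes tested). Of all genes tested, 32% rose and 32% fell, 64% in either direction. All 12 mitotic kinesins were among those that rose, with a median log2 fold change of 6.22 against -0.01 over all genes tested. The dividing classes were picked by G2 and mitosis genes, so a rise of mitotic genes in them follows in part from the gate. Of the 15 transport kinesins tested, 1 rose and 8 fell, with a median of -0.56.

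The motors that build the spindle showed wide gaps. KIF11, which slides antiparallel microtubules apart to make a bipolar spindle, averaged 289 and 232 CPM in dividing progenitors of libraries A and B, against 1.98 and 0.939 CPM in neurons. Its log2 fold change was 7.12 ± 0.15 (SE, adjusted p = 1.71e-40). KIF15, which can stand in for it, averaged 227 and 226 CPM in dividing progenitors and 2.68 and 2.54 CPM in neurons (6.34 ± 0.16, adjusted p = 1.4e-37). No dividing library came near a neuronal one for either gene. KIF11 was detected in 74.8% and 75.7% of dividing radial glia, against 0.621% and 0.580% of excitatory neurons, a level at which stray RNA in droplets cannot be told apart from expression. With every cell thinned to 1500 UMIs the shares were 33.7% and 25.2% in dividing radial glia and 0.543% and 0.249% in excitatory neurons. KIFC1, a minus-end motor that focuses spindle poles, averaged 117 and 101 CPM in dividing progenitors and 3.79 and 3.47 CPM in neurons (4.86 ± 0.19, adjusted p = 4.2e-29).

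Kinesins of the chromosomes rose as well. KIF22, a chromosome-bound motor that pushes chromosome arms outward, averaged 249 and 243 CPM in dividing progenitors and 14.2 and 12.7 CPM in neurons (4.06 ± 0.10, adjusted p = 1.4e-37). KIF18A, which dampens chromosome movement at the metaphase plate, averaged 105 and 74.0 CPM in dividing progenitors and 1.28 and 0.671 CPM in neurons (6.26 ± 0.25, adjusted p = 2.29e-28). Both were far above neurons in each library, although KIF18A varied between the dividing libraries. Its relative KIF18B, which acts on astral microtubules, had 90.0 and 84.2 CPM against 0.885 and 0.805 CPM (6.42 ± 0.28, adjusted p = 3.32e-26). KIF2C, a microtubule depolymerase that frees wrongly attached kinetochores, had 50.7 and 48.5 CPM in dividing progenitors and 0.595 and 0.402 CPM in neurons (6.16 ± 0.35, adjusted p = 2.47e-21).

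The midzone and cytokinesis motors were KIF23, KIF20A, KIF14, KIF4A and KIF20B. KIF23, the motor of the centralspindlin complex, averaged 131 and 133 CPM in dividing progenitors, against 1.13 and 0.537 CPM in neurons (6.85 ± 0.22, adjusted p = 1.54e-31). KIF20A, which takes the chromosomal passenger complex to the midzone, averaged 46.0 and 41.0 CPM in dividing progenitors and 0.617 and 0.929 CPM in neurons (5.90 ± 0.38, adjusted p = 3.91e-19). KIF14, a partner of citron kinase, averaged 48.2 and 39.7 CPM in dividing progenitors and 0.174 and 0.134 CPM in neurons, where only 4 UMIs were counted in all (7.87 ± 0.46, adjusted p = 3.8e-20). The exact size of the KIF14 fold therefore rests on very few neuronal counts. KIF20B, which in mouse cortex is needed for the last step of cytokinesis in progenitors, had the smallest change of the 12, with 175 and 162 CPM in dividing progenitors and 24.8 and 21.6 CPM in neurons (2.76 ± 0.12, adjusted p = 8.62e-27). Its levels nevertheless did not overlap between the groups.

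**Figure D2:**
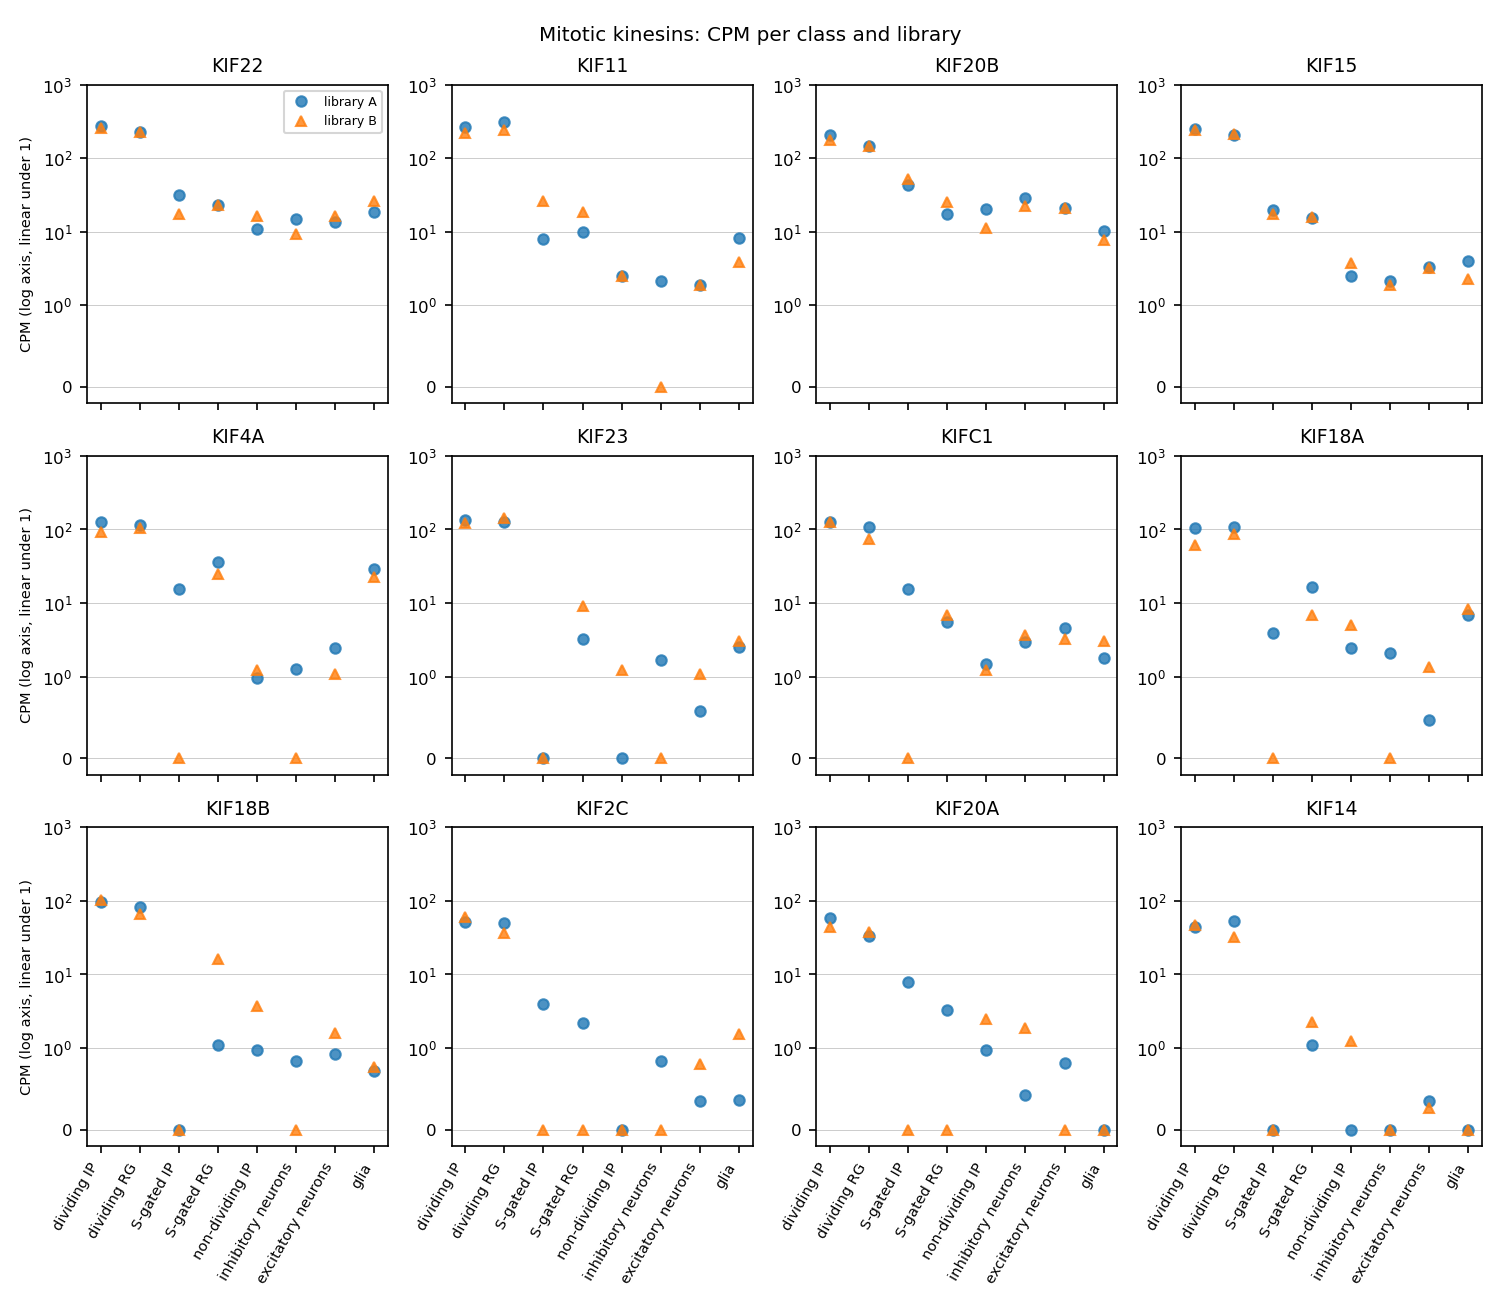
CPM of each mitotic kinesin (vertical log axis, linear under 1) in 8 gated classes, with circles for library A and triangles for library B. The 4 dividing points lie above all others in each panel; KIF20B keeps 7.64 CPM or more in every class shown, and KIF4A stands at 22.9 CPM or more in S-gated radial glia and glia.

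Against glia, the mitotic list was again higher throughout. All 12 mitotic kinesins rose in dividing progenitors relative to glia, with a median log2 fold change of 5.58. In total 15 members rose and 7 fell, against 22.5% and 25.8% of all genes tested (48.3% in either direction). KIF14 and KIF20A had no UMI in glia of either library, which puts dividing progenitors at least 61.9-fold and 60.6-fold higher, counting 3 UMIs over the group in place of 0. KIF18B and KIF2C had 3 UMIs each in glia, and their ratios of pooled CPM were 120 (95% counting interval 40.6 to 583) and 67.7 (22.9 to 331). KIF11 averaged 6.06 ± 3.2 CPM in glia (SD, n = 2 libraries), KIF15 3.13 ± 1.2 CPM and KIF23 2.79 ± 0.37 CPM, and their log2 fold changes were 5.29 ± 0.17, 6.01 ± 0.21 and 5.57 ± 0.26 (SE, adjusted p from 3.59e-24 to 2.04e-32). KIFC1 had 2.43 ± 0.88 CPM in glia, KIF20B 8.87 ± 1.7, KIF18A 7.63 ± 1.1 and KIF22 22.2 ± 5.3 CPM, and dividing progenitors exceeded glia by 5.60 ± 0.28, 4.18 ± 0.19, 3.67 ± 0.24 and 3.56 ± 0.12 on the log2 scale (adjusted p from 1.1e-18 to 1.67e-30). The groups did not overlap for any of them.

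KIF4A stood apart among them. This chromosome-bound motor, which also sets the length of the midzone with PRC1, had 128 and 93.5 CPM in dividing intermediate progenitors and 115 and 104 CPM in dividing radial glia, against 28.9 and 22.9 CPM in glia and 36.1 and 25.2 CPM in S-gated radial glia. Its levels were 0 to 2.44 CPM in neurons and 0.980 and 1.24 CPM in non-dividing intermediate progenitors. The log2 fold change was 2.09 ± 0.16 relative to glia (adjusted p = 6.14e-16) and 6.19 ± 0.21 relative to neurons (adjusted p = 2.86e-31). Neurons were lower than glia by a log2 fold change of -4.10 ± 0.32 (adjusted p = 1.15e-16). In library A a single glial cell held 23 of the 80 KIF4A UMIs of that class, and without it the level was 20.6 CPM. In glia without a single UMI of the G2, mitosis or S lists, KIF4A stood at 61.1 CPM in library A (46 UMIs in 22 of 175 cells, 23 of them in that same cell, and 30.7 CPM without it) and at 16.7 CPM in library B (6 UMIs in 6 of 92 cells).

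A neighbouring gene moved with the glial KIF4A signal. GDPD2 is next to KIF4A in the RefSeq table. It had 1459 and 1426 CPM in glia, 1168 and 978 CPM in S-gated radial glia and 604 and 526 CPM in dividing radial glia, against 12.4 and 12.6 CPM in excitatory neurons. In dividing intermediate progenitors, where KIF4A was high, GDPD2 was at most 15 CPM. Glial cells with a KIF4A UMI had 1585 and 1689 CPM of GDPD2, and glial cells without one 1446 and 1398 CPM. Whether reads from GDPD2 were counted for KIF4A was not tested.

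**Figure D3:**
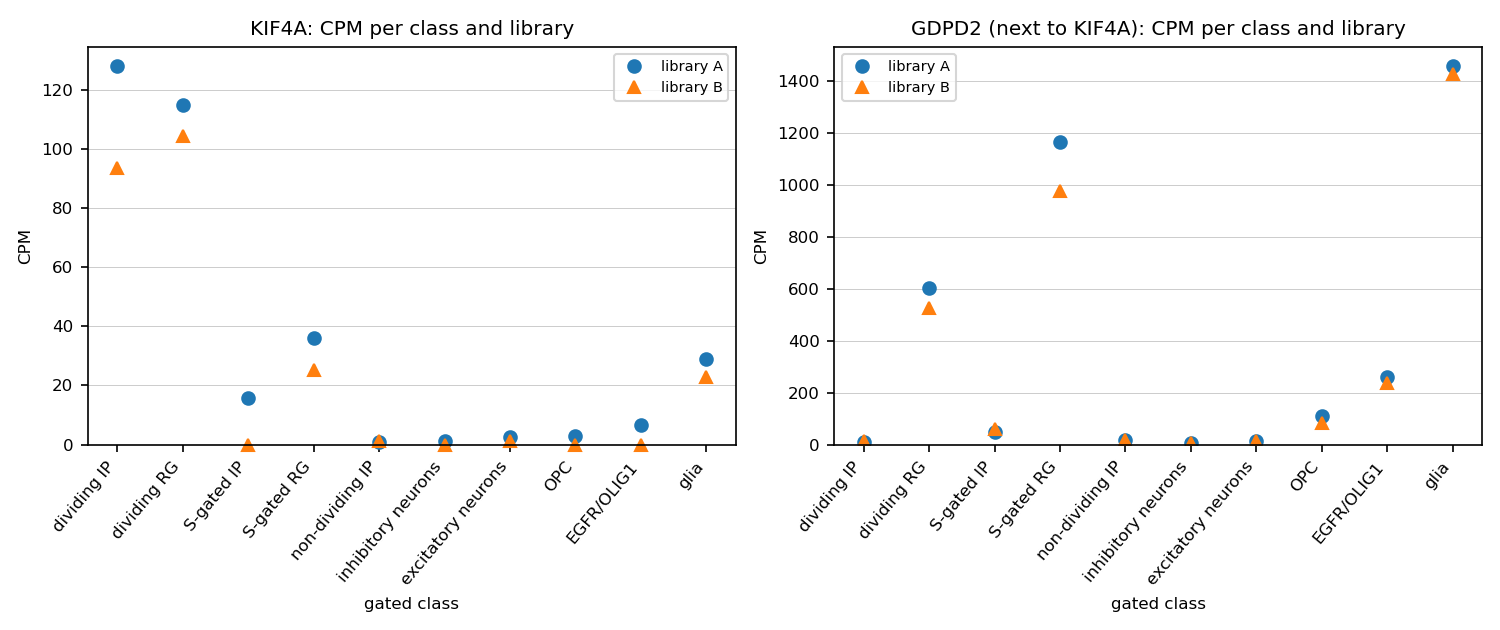
CPM of KIF4A (left panel) and of its neighbour GDPD2 (right panel) in 10 gated classes, with circles for library A and triangles for library B and both axes starting at 0. KIF4A is highest in the dividing classes and stands above neurons in S-gated radial glia and glia, where GDPD2 is at 978 CPM or more.

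Within the cell cycle, the comparison of G2 and mitosis-gated with S-gated progenitors again raised all 12 mitotic kinesins, with a median log2 fold change of 3.91. In total 15 members rose and 1 fell, against 7.63% and 4.96% of all genes tested (12.6% in either direction). The S phase list itself summed to between 2494 and 2909 CPM in the dividing classes and to between 2467 and 3692 CPM in the S-gated classes, so that the classes differed in the G2 and mitosis genes and much less in the S phase genes. KIF23 averaged 132 ± 1.1 CPM in dividing and 3.11 ± 2.1 CPM in S-gated progenitors (SD, n = 2 libraries), a log2 fold change of 7.62 ± 0.50 (SE, adjusted p = 1.03e-17). In S-gated intermediate progenitors, 3 and 8 of the 12 mitotic kinesins had no UMI in libraries A and B. A fitted change averages log2 changes over such sums and can exceed the ratio of the levels, as it does for KIF23. KIF20B averaged 169 ± 9.6 CPM in dividing and 34.4 ± 5.8 CPM in S-gated progenitors (2.52 ± 0.19, adjusted p = 1.06e-15). KIF11 averaged 260 ± 40 CPM in dividing and 15.5 ± 9.4 CPM in S-gated progenitors (4.41 ± 0.21, adjusted p = 6.22e-24). KIF15, at 226 ± 1.2 and 17.1 ± 0.57 CPM, followed at 3.76 ± 0.20 (adjusted p = 5.45e-22), and KIF22, at 246 ± 4.0 and 23.6 ± 5.0 CPM, at 3.35 ± 0.17 (adjusted p = 1.01e-22). Each of these was far higher in the dividing than in the S-gated classes. KIF18A (4.01 ± 0.38), KIFC1 (3.82 ± 0.30), KIF20A (3.67 ± 0.51) and KIF4A (2.65 ± 0.26) rose with adjusted p from 1.82e-07 to 1.58e-15. KIF14 and KIF2C had only 2 and 3 S-gated UMIs, and their ratios of pooled CPM were 39.2 (95% counting interval 10.7 to 326) and 28.6 (9.65 to 140). KIF18B rose by 6.93 ± 0.63 (adjusted p = 1.14e-12), with 6 of its 7 UMIs in S-gated radial glia of library B from a single cell. The size of its fitted change therefore rests on few S-gated counts and is not a ratio of levels. Outside the mitotic list KIF3A (1.23 ± 0.31), KIF5B (0.63 ± 0.16) and KIF2A (0.40 ± 0.11) rose and KIF21B fell (-0.76 ± 0.25). The KIF21B call was lost under 7 of 12 alternatives, and those of KIF3A, KIF5B and KIF2A when cells were thinned.

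KIF24, listed with the cilium because it keeps centrioles from growing one, also rose in dividing progenitors. It averaged 23.6 and 18.2 CPM in dividing progenitors, against 1.60 and 2.0 CPM in neurons (log2 fold change 3.53 ± 0.36, adjusted p = 2.75e-12). In S-gated radial glia it had 5.47 and 11.4 CPM. Glia had 10.8 and 3.82 CPM, but a single cell held 20 of the 30 UMIs in library A, and without it the level there was 3.61 CPM. The rise in dividing progenitors relative to glia (1.36 ± 0.34, adjusted p = 0.000857) kept its call without such cells, whereas the lower level in neurons than in glia (-2.17 ± 0.46, adjusted p = 6.02e-05) lost it (adjusted p = 0.114). Between G2 and mitosis-gated and S-gated progenitors the log2 fold change was 1.30 ± 0.46 and did not pass the test (adjusted p = 0.0515).

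The transport kinesins were then read in neurons against glia, where 11 members rose and 13 fell, against 33.3% and 30.9% of all genes tested (64.3% in either direction). Of the 15 transport kinesins tested, 7 rose and 6 fell, so the list as a whole did not lean to neurons (median log2 fold change -0.15, against 0.06 over all genes tested). The genes that rose were the 3 heavy chains of kinesin-1, the 3 motor subunits of kinesin-2 and KIF21B.

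Among the kinesin-1 heavy chains, KIF5A differed most. It had 39.98 and 42.8 CPM in inhibitory neurons and 53.6 and 42.7 CPM in excitatory neurons, against 6.14 and 6.11 CPM in glia (log2 fold change of neurons over glia 2.92 ± 0.25, adjusted p = 4.69e-15). Dividing progenitors averaged 8.39 and 11.3 CPM, so KIF5A also fell in them relative to neurons (-2.41 ± 0.22, adjusted p = 3.38e-14). Non-dividing intermediate progenitors lay between, at 20.6 and 18.6 CPM. KIF5C averaged 263 ± 13 CPM in neurons and 227 ± 22 CPM in glia (SD, n = 2 libraries), and its log2 fold change of 0.27 ± 0.10 lost its call under 4 of 12 alternatives. KIF5B, the heavy chain found in most tissues, averaged 117 ± 1.6 CPM in neurons and 80.1 ± 7.6 CPM in glia (0.61 ± 0.12). Relative to glia it rose in dividing progenitors too (0.74 ± 0.12, adjusted p = 1.38e-06), against the direction of the 6 transport kinesins that fell there, whereas its 129 and 139 CPM in dividing progenitors and 118 and 115 CPM in neurons did not differ past the test (0.13, 95% interval -0.06 to 0.32).

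The mix of heavy chains therefore differed between classes. KIF5A made up 9.63% (95% exact binomial interval 7.87 to 11.6) and 10.5% (6.77 to 15.3) of KIF5 UMIs in inhibitory neurons and 11.7% (10.7 to 12.7) and 10.2% (8.76 to 11.8) in excitatory neurons, against 1.90% (1.11 to 3.02) and 2.02% (0.876 to 3.94) in glia. KIF5B made up 43.1% (38.8 to 47.5) and 50.8% (43.4 to 58.1) in dividing intermediate progenitors, against 22.4% (19.6 to 25.4) and 21.2% (16.7 to 26.2) in non-dividing ones. Such a share is compared here between classes and not between paralogs, because the capture of each gene is unknown, and its interval covers counting error only.

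**Figure D4:**
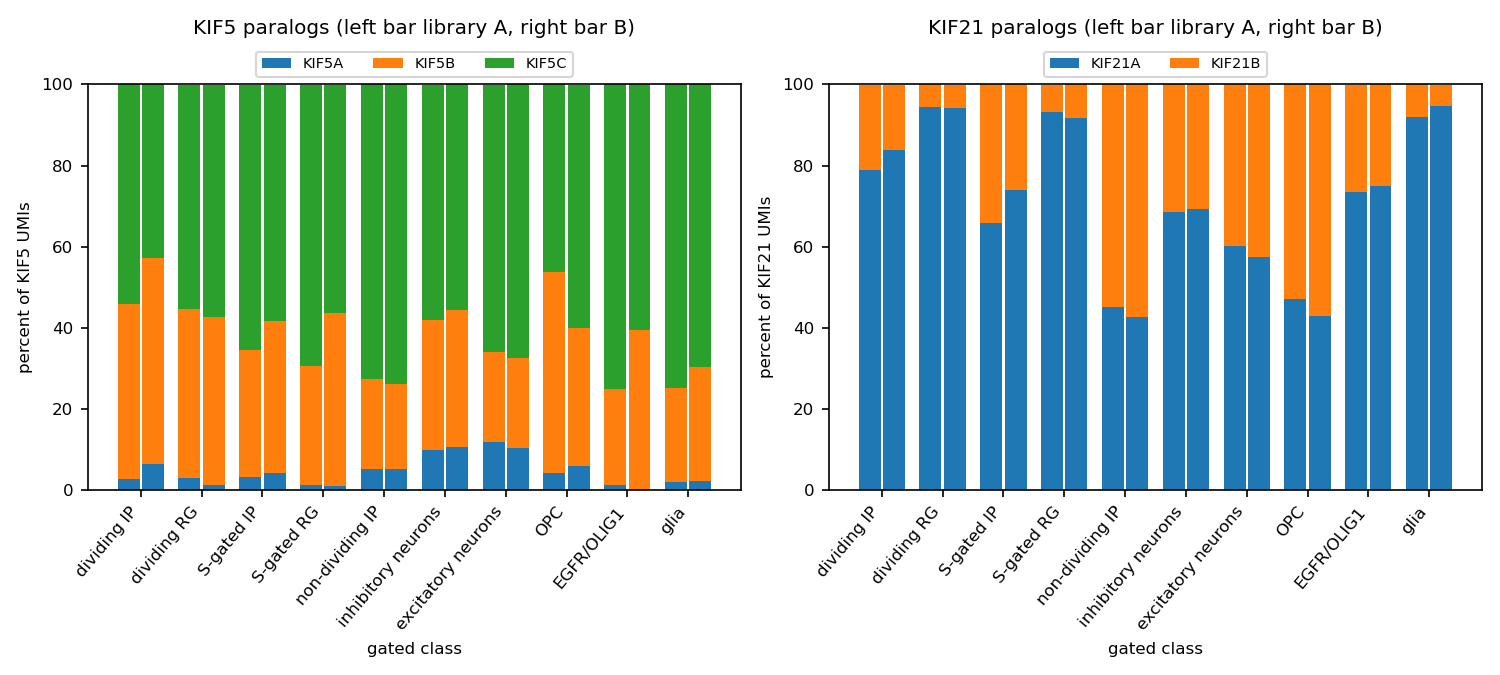
Share of UMIs that each paralog took of its subfamily, in percent, for KIF5 (left panel) and KIF21 (right panel) in 10 gated classes; the left bar of each pair is library A and the right bar library B. KIF5A is thickest in the neuronal classes, and KIF21B takes the largest shares in non-dividing intermediate progenitors and oligodendrocyte precursors.

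Kinesin-2 pairs KIF3A with KIF3B or KIF3C and serves both axonal traffic and the building of cilia. KIF3A had 143 and 156 CPM in inhibitory neurons and 96.2 and 104 CPM in excitatory neurons, against 58.9 and 42.8 CPM in glia (neurons over glia 1.24 ± 0.11, adjusted p = 1.02e-14). KIF3C, a subunit known mainly from neurons, had 119 and 76.2 CPM in inhibitory and 92.0 and 87.5 CPM in excitatory neurons, against 40.8 and 36.7 CPM in glia (1.40 ± 0.12, adjusted p = 1.63e-14). Every neuronal library exceeded every glial one for both genes. KIF3B, at 15.1 ± 2.5 CPM in neurons and 8.65 ± 3.6 CPM in glia, rose less (0.84 ± 0.28). All 3 fell in dividing progenitors relative to neurons, by log2 fold changes of -1.25 ± 0.10, -1.35 ± 0.12 and -0.97 ± 0.27 for KIF3A, KIF3C and KIF3B (adjusted p from 0.00177 to 1.37e-15). Relative to glia, dividing progenitors did not differ past the test in them, with 95% intervals of -0.29 to 0.27 for KIF3A and -0.28 to 0.38 for KIF3C.

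The KIF21 pair, which slows microtubule growth, went in opposite directions. KIF21B had 112 and 98.5 CPM in inhibitory neurons and 92.8 and 92.6 CPM in excitatory neurons, against 34.3 and 19.1 CPM in glia (neurons over glia 1.84 ± 0.12, adjusted p = 5.87e-19). KIF21A had 244 and 223 CPM in inhibitory and 140 and 125 CPM in excitatory neurons, against 393 and 344 CPM in glia (-1.0 ± 0.09, adjusted p = 2.59e-14). The groups did not overlap for either gene. KIF21B was highest in non-dividing intermediate progenitors, at 150 and 130 CPM, and there took 55.0% (50.8 to 59.2) and 57.4% (49.9 to 64.6) of KIF21 UMIs, against 8.02% (6.54 to 9.72) and 5.26% (3.43 to 7.67) in glia. It fell to 22.2 and 20.9 CPM in dividing progenitors, against 102 and 95.5 CPM in neurons (-2.29 ± 0.13, adjusted p = 4.1e-22).

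Besides KIF21A, 5 transport kinesins fell in neurons relative to glia. KIF16B, a motor of early endosomes, had 11.4 ± 1.2 CPM in neurons and 27.7 ± 2.9 CPM in glia (-1.24 ± 0.22, adjusted p = 3.08e-06). KIF13A, which moves recycling endosomes, had 28.2 ± 1.6 CPM in neurons and 57.6 ± 6.9 CPM in glia (-0.99 ± 0.14), and in dividing progenitors rose above neurons (0.70 ± 0.14, adjusted p = 3.16e-05) where 8 other transport kinesins fell. KIF1C, a motor of secretory and RNA cargo, had 4.16 ± 2.6 CPM in neurons and 9.84 ± 0.13 CPM in glia (-1.58 ± 0.45, adjusted p = 0.00178). KIF1B (-0.56 ± 0.09) and the minus-end motor KIFC3 (-0.65 ± 0.24) fell by less. KIF1A, the carrier of synaptic vesicle precursors, averaged 118 ± 2.9 CPM in neurons and 133 ± 27 CPM in glia, a difference that did not pass the test (95% interval of the log2 fold change -0.35 to 0.06). KIF13B did not pass either (-0.99 to 0.21). KIF1A did fall in dividing progenitors, relative to neurons (-0.56 ± 0.10) and relative to glia (-0.71 ± 0.12). The fall relative to neurons is one of class averages, since dividing radial glia had a higher level than excitatory neurons in both libraries.

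Relative to glia, 6 of 15 transport kinesins fell in dividing progenitors, against 25.8% of all genes tested. KIF21A averaged 203 ± 9.4 CPM in dividing progenitors and 368 ± 35 CPM in glia (-1.06 ± 0.10, adjusted p = 1.73e-13), KIF16B 10.9 ± 0.75 and 27.7 ± 2.9 CPM (-1.38 ± 0.27, adjusted p = 2.55e-05), and KIFC3 8.17 ± 1.4 and 18.4 ± 5.6 CPM (-1.43 ± 0.32, adjusted p = 0.000168). The other called ones (KIF1A, KIF5C and KIF1B) ranged between -0.71 and -0.48.

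**Figure D5:**
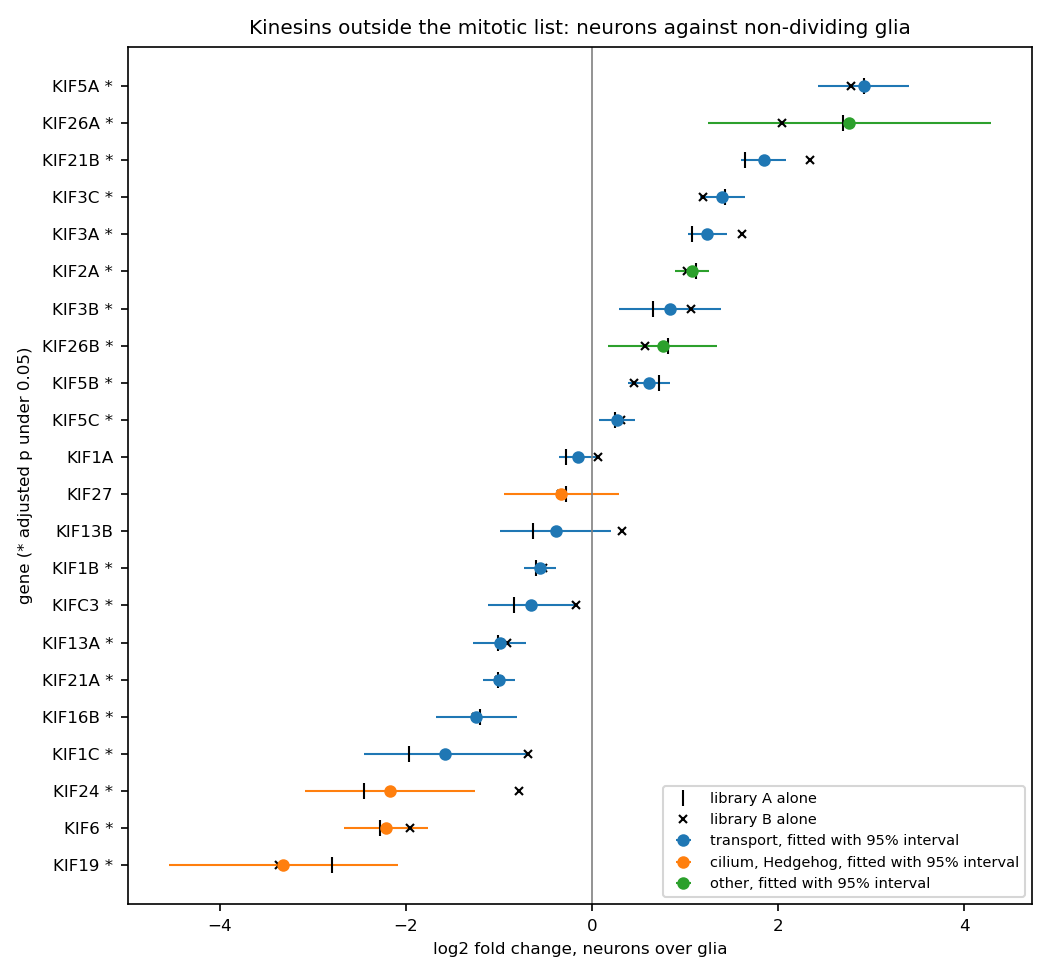
Log2 fold change of neurons over glia for the 22 tested kinesins outside the mitotic list; points are the fitted values with 95% intervals, coloured by role, and the bar and cross marks give library A and library B alone. KIF5A and KIF26A lie farthest to the right and KIF19 and KIF6 among the farthest to the left.

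Of the kinesins with other roles, KIF2A, a depolymerase that trims axon collaterals in mouse, was measured at high levels in every class. It had 508 and 474 CPM in inhibitory and 281 and 255 CPM in excitatory neurons, against 184 and 177 CPM in glia (neurons over glia 1.08 ± 0.09, adjusted p = 1.11e-14). In dividing progenitors it averaged 291 and 301 CPM, against 395 and 365 CPM in neurons (-0.38 ± 0.08), and it rose relative to glia (0.70 ± 0.10). The dividing mean was below inhibitory neurons but above excitatory neurons in both libraries. KIF26A, an atypical kinesin that does not walk, had most of its neuronal UMIs in inhibitory neurons (76 of 89). It averaged 12.8 ± 1.9 CPM in neurons and had 3 UMIs in all glia (2.76 ± 0.78, adjusted p = 0.00173). With the UMIs of both neuronal classes pooled, which gives most weight to excitatory neurons, neurons had 5.83 CPM and the ratio to glia was 7.93 (95% counting interval 2.63 to 39.2). Dividing progenitors had 9 UMIs of it and 1.65 ± 1.3 CPM, below neurons by -1.41 ± 0.60 on the log2 scale (adjusted p = 0.0349). Excitatory neurons were under this dividing mean in both libraries, and above glia in library A only. For KIF26A the level of neurons in both comparisons is thus mainly that of inhibitory neurons. KIF26B averaged 19.7 ± 2.3 CPM in neurons and 11.4 ± 2.3 CPM in glia (0.76 ± 0.30), and 6.26 ± 1.1 CPM in dividing progenitors (-1.52 ± 0.33 relative to neurons, adjusted p = 8.12e-05). The KIF26B gene overlaps SMYD3 in the RefSeq table, whose level was 179 CPM in excitatory neurons and 81.6 CPM in glia over both libraries, and the strand used in counting is not given in the sources used here. KIF25 was too low to be tested.

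Of the 4 cilium and Hedgehog kinesins that could be tested, 3 fell in neurons relative to glia (KIF6, KIF19 and KIF24) and KIF27 did not pass. Of all genes tested, 30.9% fell there. The KIF24 call was lost without the cells that held many of its UMIs, as given above. KIF6, a kinesin of motile cilia, had 4.63 and 5.58 CPM in inhibitory and 9.63 and 12.9 CPM in excitatory neurons, against 35.7 and 35.1 CPM in glia (-2.21 ± 0.23, adjusted p = 4.33e-12). KIF19, which sets the length of motile cilia in mouse, had 0.421 and 0 CPM in inhibitory and 0.696 and 1.61 CPM in excitatory neurons, against 6.14 and 8.40 CPM in glia (-3.32 ± 0.63, adjusted p = 7.88e-06). Neurons and glia did not overlap for either gene. In dividing progenitors KIF19 averaged 4.85 and 2.27 CPM and rose relative to neurons (2.55 ± 0.70, adjusted p = 0.00135). KIF6 averaged 15.02 and 14.1 CPM there and fell relative to glia (-1.66 ± 0.26, adjusted p = 2.51e-07). KIF7, the Hedgehog kinesin of the cilium tip, lay between 0 and 10.2 CPM over the neural classes and was too low to be tested, as was KIF9.

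Several of these calls were lost under alternatives. In neurons against glia, the stricter non-dividing gate of 0 UMIs, which leaves fewer cells, ended those of KIF16B, KIF19, KIF26A, KIF26B, KIF3B, KIF5C and KIF11, and thinning those of KIF11, KIF22, KIF5C and KIFC3. In dividing progenitors, the calls of KIFC3 and KIF26A relative to neurons and of KIF16B and KIF24 relative to glia were each lost under 1 or 2 of 12 alternatives.

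Mitotic kinesins in non-dividing cells were compared as well. In neurons relative to glia KIF20B rose (23.2 ± 2.3 CPM in neurons and 8.87 ± 1.7 CPM in glia, 1.42 ± 0.24, adjusted p = 1.05e-06), against 4 that fell, namely KIF4A, KIF18A, KIF11 and KIF22. Of the 12 mitotic kinesins 8.33% thus rose and 33.3% fell, against 33.3% and 30.9% of all genes tested. The share that fell was near that background. KIF18A averaged 0.977 ± 0.43 CPM in neurons and 7.63 ± 1.1 CPM in glia (-2.58 ± 0.49, adjusted p = 9.47e-06), and KIF11 averaged 1.46 ± 0.74 and 6.06 ± 3.2 CPM (-1.84 ± 0.44, adjusted p = 0.000321), while KIF22 differed by -0.50 ± 0.20. The proliferation markers outside the gates summed to 603 and 608 CPM in glia and to between 459 and 552 CPM in neurons. In glia without any UMI of the G2, mitosis or S lists KIF11 and KIF18A each stood at 6.64 and 5.55 CPM (5 and 2 UMIs in libraries A and B), against 8.93 and 3.16 CPM for KIF11 and 6.94 and 9.48 CPM for KIF18A in the other glia. KIF22 stood at 25.2 and 30.5 CPM in the glia without such UMIs, against 15.9 and 24.2 CPM in the others. In neurons without any UMI of the G2, mitosis or S lists KIF20B still stood between 19.0 and 25.2 CPM, against 7.97 and 8.33 CPM in such glia.

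Between the dividing classes, 4 members rose and 5 fell in dividing intermediate progenitors relative to dividing radial glia, against 12.1% and 13.8% of all genes tested (25.9% in either direction), so the members' share was near the background. Those that fell were 4 transport kinesins and KIF6. KIF21A had 102 and 118 CPM in dividing intermediate progenitors and 291 and 302 CPM in dividing radial glia (-1.38 ± 0.14, adjusted p = 6.67e-12). KIF6 had 5.08 and 4.92 CPM in dividing intermediate progenitors and 24.97 and 23.2 CPM in dividing radial glia (-2.16 ± 0.43, adjusted p = 8.55e-05), and KIF1C 3.17 and 1.64 against 12.5 and 7.25 CPM (-1.85 ± 0.71, adjusted p = 0.0469). KIF1A (-0.82 ± 0.17) and KIF13A (-0.69 ± 0.21) fell too. Each of these was lower in both libraries. KIF20B (0.52 ± 0.14), KIFC1 (0.48 ± 0.17), KIF5B (0.42 ± 0.15, adjusted p = 0.026, against the 4 transport kinesins that fell) and KIF22 (0.32 ± 0.10) rose. The gated G2 and mitosis list itself summed to 8704 and 8575 CPM in dividing intermediate progenitors and 6614 and 6792 CPM in dividing radial glia, and its part in these small differences was not tested. With a gate of 15 UMIs or DESeq2, KIF20B alone of these 4 kept its call, and the KIF1C call was lost under 3 of 12 alternatives. With cells thinned, KIF21A alone kept its call, and KIF1C and KIF6 had too few counts to be tested.

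Inhibitory neurons were compared with excitatory neurons, where 6 members rose and 3 fell, against 14% and 15.5% of all genes tested (29.5% in either direction). KIF26A had 26.9 and 22.3 CPM in inhibitory neurons and 1.28 and 0.537 CPM in excitatory neurons (4.42 ± 0.48, adjusted p = 5.91e-11), so that the libraries of the classes lay far apart. KIF26B went the other way, with 10.5 and 11.2 CPM in inhibitory and 25.6 and 31.7 CPM in excitatory neurons (-1.40 ± 0.30, adjusted p = 0.000132). KIF6 was also lower in inhibitory neurons, at 5.10 ± 0.67 CPM, against 11.3 ± 2.3 CPM in excitatory neurons (-1.21 ± 0.38, adjusted p = 0.0119). KIF2A (0.79 ± 0.10), KIF21A (0.72 ± 0.11), KIF3A (0.46 ± 0.10), KIF5B (0.37 ± 0.12) and KIF1A (0.33 ± 0.12) rose and KIF5C fell (-0.43 ± 0.11, adjusted p = 0.00267, against the 4 transport kinesins that rose). The radial glia markers outside the gates summed to 1852 and 2275 CPM in inhibitory neurons and 9609 and 10554 CPM in excitatory neurons, and their part was not tested. The calls of KIF1A, KIF5B and KIF6 were each lost under 2 to 4 of 12 alternatives.

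Oligodendrocyte precursors were compared with glia. Of the tested members, 8 rose and 6 fell, against 11.1% and 13.6% of all genes tested (24.7% in either direction), with only 76 and 26 cells behind the precursors. KIFC3 had 164 and 99.4 CPM in oligodendrocyte precursors and 22.4 and 14.5 CPM in glia (2.78 ± 0.29, adjusted p = 3.3e-11), and EGFR and OLIG1 progenitors held it at 106 and 134 CPM. KIF13A had 197 and 154 CPM in oligodendrocyte precursors and 62.5 and 52.7 CPM in glia (1.52 ± 0.21, adjusted p = 5.4e-08). KIF19 had 62.7 and 27.1 CPM in oligodendrocyte precursors and 6.14 and 8.40 CPM in glia (2.80 ± 0.53, adjusted p = 2.89e-05). For these genes both precursor libraries exceeded both glial libraries.

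KIF21A fell to 68.7 and 54.2 CPM in oligodendrocyte precursors, against 393 and 344 CPM in glia (-2.63 ± 0.22, adjusted p = 2e-14), and KIF21B rose to 77.6 and 72.3 CPM, against 34.3 and 19.1 CPM (1.27 ± 0.30, adjusted p = 0.000674). KIF6 had no UMI in oligodendrocyte precursors, against 35.7 and 35.1 CPM in glia, which makes it at least 5.28-fold lower, counting 3 UMIs over the group. KIF4A and KIF22, with 1 and 2 UMIs in oligodendrocyte precursors, had ratios of pooled CPM to glia of 0.0832 (95% counting interval 0.00209 to 0.473) and 0.215 (0.0257 to 0.802), with adjusted p of 0.00105 and 0.0189. KIF2A (0.98 ± 0.15) and KIF5B (0.67 ± 0.22) rose, and KIF5C (-0.74 ± 0.20) and KIF1B (-0.61 ± 0.17) fell. KIF26A and KIF26B passed the test through library A alone, where they had 20.9 and 38.8 CPM in oligodendrocyte precursors against 0.722 and 9.75 CPM in glia (adjusted p = 0.00354 and 0.0496). In library B they had 0 and 9.03 CPM against 0.764 and 13.0 CPM, and without library A their log2 ratios to glia turned to -1.68 and -0.66. The stricter non-dividing gate ended the calls of KIF1B, KIF21B, KIF22, KIF26A, KIF26B, KIF5B and KIF5C, and thinning those of KIF1B, KIF21B, KIF22 and KIF5B.

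Dividing cells were also compared with non-dividing cells within each lineage, as dividing over non-dividing intermediate progenitors minus dividing radial glia over glia. This difference passed the test upward for 2 members and downward for 2, against 7.5% and 5% of all genes tested (12.5% in either direction). The gate list of 6 general neuronal genes summed to 3024 and 2983 CPM in non-dividing intermediate progenitors, against 1355 and 1172 CPM in dividing ones. Division and neuronal differentiation therefore cannot be told apart in that lineage. KIF21B had 27.3 and 23.0 CPM in dividing intermediate progenitors, against 150 and 130 CPM in non-dividing ones, whereas dividing radial glia had 17.1 and 18.9 CPM and glia 34.3 and 19.1 CPM (difference in log2 fold change -1.69 ± 0.34, adjusted p = 0.000237). The KIF4A difference, at 4.68 ± 0.54 (adjusted p = 2.09e-09), came with its glial level given above. The differences of KIF22 (1.04 ± 0.29, adjusted p = 0.0111) and KIF3A (-0.80 ± 0.25) were smaller, and the stricter non-dividing gate and thinning each ended the calls of KIF21B, KIF22 and KIF3A.

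The genes that work with kinesins were read from lists. Of 16 tested partners of the mitotic kinesins, all 16 rose in dividing progenitors relative to neurons, and likewise relative to glia and to S-gated progenitors, with a median log2 fold change of 5.94 against neurons. Of all genes tested, 32%, 22.5% and 7.63% rose in these 3 comparisons. The dividing classes were gated on G2 and mitosis genes, so a rise of such partners follows in part from the gate. CENPE, itself a kinesin of the kinetochore without a KIF symbol, was among the partners that rose, as were PRC1, the anchor of KIF4A at the midzone (354 and 342 CPM in dividing progenitors and 3.23 and 3.20 CPM in neurons, 6.69 ± 0.12), and the kinetochore subunits SPC24 (6.75 ± 0.12), NDC80 (7.26 ± 0.20) and SKA1 (7.79 ± 0.40).

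Of 16 tested cargo adaptors, 8 rose and 5 fell in neurons relative to glia, and 1 rose and 13 fell in dividing progenitors relative to neurons, where the shares over all genes tested were 33.3% and 30.9%, and 32% and 32%. The share of adaptors that fell in neurons was near that background. KLC1, a light chain of kinesin-1, averaged 278 and 256 CPM in neurons and 89.9 and 81.0 CPM in glia (1.71 ± 0.11). KIFAP3, the adaptor of kinesin-2, averaged 222 and 221 CPM in neurons and 124 and 101 CPM in glia (1.01 ± 0.11). MAPK8IP2 (1.87 ± 0.22) and MADD (1.69 ± 0.23) rose beside them, while FEZ2 fell (-1.21 ± 0.17).

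Dynein, which walks the other way, had 21 tested subunits and regulators, of which 11 rose and 3 fell in neurons relative to glia and 2 rose and 13 fell in dividing progenitors relative to neurons. The intermediate chain DYNC1I1 averaged 45.5 and 47.7 CPM in neurons and 4.69 and 7.64 CPM in glia (3.07 ± 0.25). NDE1, a dynein regulator of the centrosome, averaged 93.6 and 95.9 CPM in dividing progenitors and 2.19 and 2.66 CPM in neurons (5.29 ± 0.21). The light chain DYNLL1 was the other that rose there (1.24 ± 0.05). Of 13 tested tubulins and microtubule proteins, 10 rose and 3 fell in neurons relative to glia, among them MAPT, which codes for tau (3.32 ± 0.14), and 3 rose and 10 fell in dividing progenitors relative to neurons, with TUBB4B among those that rose (2.49 ± 0.05). The shares over all genes tested were those given with the cargo adaptors.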

How the data were processed

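The authors deposited raw UMI counts, whole numbers without normalization, in 1 matrix that joins both replicates. Per the submitters' processing notes they used Cell Ranger, and its version and the genome build were not given in the sources used here. Per the labels, the samples were 2 wild-type replicates of dorsal cortex at postnatal day 3. The barcode suffix served as library, and the labels do not say which suffix is which replicate. No cell had fewer than 1501 UMIs.

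A cell was dropped below 500 genes or above 10% mitochondrial UMIs (2 cells in library A and 12 in library B). Scrublet in scanpy 1.11.5 called 5 cells in library A (0.0511%) and 3 in library B (0.0601%) as doublets, which were removed. So low a share was not taken to mean that few doublets were present. Whether the caller worked was not tested, and removal of cells with a score above 0.2 was an alternative. In all 14765 cells remained, of which 8382 passed exactly 1 gate on marker UMIs.

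UMIs were summed per class and library, giving 20 sums over 10 neural classes. The fit used edgeR 4.0.16 under R 4.3.3 (glmQLFit, TMM, filterByExpr, class plus library as a block, 9 residual and 41.0 prior degrees of freedom), and p-values were adjusted over all 11157 genes tested. The library block was kept because both libraries hold all classes. On simulated data the fit was checked for known fold changes. DESeq2 1.42.0 was an alternative. Levels are CPM of all UMIs of a sum, averaged over the classes named, with SD over the 2 libraries, while fitted changes are averages on the log2 scale with their SE, so both can differ. Counting intervals and floors cover counting error only.

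The members, role lists, marker lists and partner lists were chosen with earlier results of these data known. Full statistics were given for members with an adjusted p under 0.05, a log2 fold change of at least 1 in size and the same sign in both libraries (at most 12 per comparison), and for called members moving against their role list. Other members are given by levels, fold changes or ranges.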

Additional observations from a re-analysis of the deposited data

Results flagged for a closer look

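For 4 of 34 tested kinesins the change from non-dividing to dividing cells differed between the lineages by the test of the difference itself. This was near the 12.5% of all genes tested. The log2 difference, intermediate progenitor lineage minus glial lineage, was -0.80 for KIF3A, -1.69 for KIF21B, 1.04 for KIF22 and 4.68 for KIF4A. For KIF3A, dividing intermediate progenitors had 49.5 and 32.8 CPM and non-dividing ones 72.5 and 61.9 CPM, whereas dividing radial glia had 64.4 and 58.0 CPM and glia 58.9 and 42.8 CPM. Its call was lost under 6 of 12 alternatives, and those of KIF21B and KIF22 under thinning and under the non-dividing gate of 0 UMIs.

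Kinesins also stood out in gated cells outside the neural comparisons, which were not gated for division. KIF6 reached a pooled level of 225 CPM in ependymal cells (110 CPM in library A from 10 UMIs in 16 cells, and 317 CPM in library B from 36 UMIs in 32 cells), and KIF27, a kinesin of motile cilia in mouse, 83.1 CPM there, with 0 UMIs in library A and 17 in library B. In endothelial cells KIF26A stood at 42.4 CPM (39.2 and 43.9 CPM in libraries A and B), KIF13B at 33.9 CPM, KIF1C at 33.1 CPM and KIF25 at 19.3 CPM. In microglia KIF5B stood at 229.6 CPM (228 and 232 CPM in libraries A and B) and KIF13B at 26.3 CPM. These levels are above those of every neural class over both libraries, and the differences were not tested.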

How the results depend on the processing

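Of 124 called results on single kinesins, 38 lost their call under at least 1 of 12 alternatives with a test, 31 of them under one other than thinning, and 86 lost it under none. Of those 86, 71 were tested under all 12, because thinning left 28 of the 124 with too few counts to test, fitting only the compared classes 5 and the non-dividing gate of 0 UMIs 2. DESeq2 lost 13 calls and thinning 23. No call of the mitotic list in dividing progenitors against neurons, glia or S-gated progenitors was lost, with KIF20A not tested under thinning. Thinning each cell to 1500 UMIs, which leaves fewer counts, took the called members to 7 lower in dividing progenitors against neurons, 7 higher and 5 lower in neurons against glia, 1 higher and 1 lower in dividing intermediate progenitors against dividing radial glia, 3 higher and 3 lower in oligodendrocyte precursors against glia, and 1 higher and 1 lower for the lineage difference. Of these, KIF15 (higher in dividing intermediate progenitors) and KIF2A (lower in the lineage difference) were not called in the reported fit. A non-dividing gate of 0 UMIs, added after the data were seen, gave 7 higher in neurons against glia, 4 higher and 3 lower in oligodendrocyte precursors against glia, and 0 lower for the lineage difference. The single lower member of G2 and mitosis-gated against S-gated progenitors, KIF21B, became 0 with doublet scores above 0.2 removed, gates of 5 or 15 UMIs, thinning, no filter on low counts, no replicate block or the gate of 0 UMIs. Members higher in dividing intermediate progenitors against dividing radial glia numbered 1 with a gate of 15 UMIs or DESeq2, 7 with only those classes fitted (KIF15, KIF18B and KIF20A added) and 2 without the replicate block. The lower members of the lineage difference numbered 1 with doublet scores removed, a gate of 15 UMIs, DESeq2 or no replicate block. KIF24 in G2 and mitosis-gated against S-gated progenitors passed the test under 6 of 12 alternatives. Removing the 4 cells with 10 or more UMIs of KIF4A or KIF24, also added later, ended only the KIF24 call in neurons against glia. Without library A the log2 ratios of KIF26A and KIF26B in oligodendrocyte precursors against glia reversed to -1.68 and -0.66, against 4.23 and 1.88 without library B; with 1 library left no count of calls was possible. The causes were not tested. Another scaling moved the median of all genes by less than 0.1 on the log2 scale.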
